A study of Mus musculus with 20 samples.

Results

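Imprinted genes are expressed mainly from the chromosome inherited from one parent, so reciprocal crosses of 2 strains are the usual setting in which to look at them. Expression of 37 listed imprinted genes was compared in mouse XY gonads of embryonic day 11.5, between C57BL/6J and 129S1/SvImJ and between their reciprocal hybrids, (B6x129S1)F1 and (129S1xB6)F1. The list was matched to gene probes by the gene name in the files or a synonym. Of the 37 genes, 36 had at least 1 probe, with 75 probes in all among 41174 gene probes, and 34 gave enough signal to be tested among 23846 genes. Rtl1, a retrotransposon-derived gene, had no probe under its name. Peg10 and Nap1l5 were too dim to test, being well above background in the gonad channel on 8 and 6 of 20 arrays. By the parental allele known to be active, 15 of the listed genes are maternally and 21 paternally expressed, and Gnas gives transcripts of both kinds.

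Each array carried Cy5-labelled RNA from 1 pair of gonads of 1 embryo, dissected away from the mesonephros at 17 to 21 tail somites, with 5 arrays per group and 20 in all. The Cy3 channel of every array held the same reference, a pool of gonads and whole embryos of both XY and XX embryos (Sox9-ECFP(C57BL/6J) x CD-1), without dye swaps. Values are log2 ratios of gonad over reference, so they show differences between groups for a gene and not the abundance of one gene against another. The labels state that samples of a strain came from more than 1 litter, and the letters in the sample names may mark litters, which the labels do not state. Differences come from a limma fit over all 20 arrays, are given with the standard error (SE), and count as called at a Benjamini-Hochberg adjusted p under 0.05 over all genes tested. These p-values set a difference against the spread between gonad pairs within groups, each pair taken as independent. No letter is shared between groups, and most C57BL/6J arrays carry the letter H. If the letters mark litters, littermates enter as separate samples.

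Between 78.4% and 88.3% of gene probes per array were well above background. The reference contains whole embryos, and 11 gonad markers lay above it in every group, with a C57BL/6J mean of 1.98, a 129S1/SvImJ mean of 1.53 and hybrid means of 1.69 for (B6x129S1)F1 and 1.87 for (129S1xB6)F1, as did 11 germ cell markers, with group means of 1.36 to 2.09. The 12 mesonephros markers averaged -0.02 to 0.12. The 8 tested markers of other embryonic tissues averaged -2.39 to -2.11. Array H1 of C57BL/6J stood apart in this mean, at -1.21 against -2.43 to -2.20 on the other arrays of its strain. Of the 8 markers only Afp and Alb lay above those arrays on H1. Afp moved farthest, at 2.85 against -6.07 to -4.94. Array H1 enters every strain, mid-parent and pair result. Of the 6 genes described below for their strain difference, Phlda2 alone moved by more than 1.5 times without it.

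At an imprinted locus, methylation set in the germline of 1 parent silences or activates the genes of that chromosome in the offspring, often for a cluster of neighbours under 1 control region. Many such genes act on embryonic growth: Igf2 is a growth factor, Igf2r clears it, and Cdkn1c restrains the cell cycle. The marks are kept in somatic cells and erased in primordial germ cells, which populate the gonad at this stage. In reciprocal hybrids the autosomal genotype is the same and the parental origin of each allele is exchanged, while the sex chromosomes and mitochondria of XY embryos come from opposite strains. The labels do not say which parent of a cross was the mother. By the usual convention it is named first.

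No imprinted gene differed between the reciprocal hybrids beyond the threshold. In the limma fit 0 of 34 were called at an adjusted p under 0.05, against 0% of all genes tested, and 1 of 34 had an unadjusted p under 0.05, against 2.51% of all genes. The median difference, (B6x129S1)F1 minus (129S1xB6)F1, was 0.02 for the 15 maternally expressed genes and -0.00 for the 18 paternally expressed genes tested, beside 0.01 over all genes. Of these, 8 of 15 and 9 of 18 lay above 0. On the brightest probe of each gene, in none did all 5 arrays of one cross lie beyond all 5 of the other, which 0.524% of all genes did. Probe by probe, 0 of the 70 probes tested were called, against 0% of all probes. In the same comparison the 11 gonad markers had a median difference of -0.21, with 2 of 11 above 0, 0 called and 2, or 18.2%, at an unadjusted p under 0.05. Their part in the values of the imprinted genes was not tested.

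The intervals show what size of difference the 5 against 5 arrays left possible in the ratios as normalised. Background correction with an offset holds the ratios of dim probes towards 0, and their intervals with them. The 95% interval lay within 2-fold either way for 13 of 15 maternally and 18 of 18 paternally expressed genes, beside 98.1% of all genes. The genes whose interval passed 2-fold were Copg2 and Zim1. The narrowest belonged to Slc22a18, a transporter gene of the Kcnq1 cluster, at 0.05 with an interval of -0.07 to 0.17, and to Calcr, the calcitonin receptor, at -0.02 with an interval of -0.15 to 0.10.

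**Figure D1:**
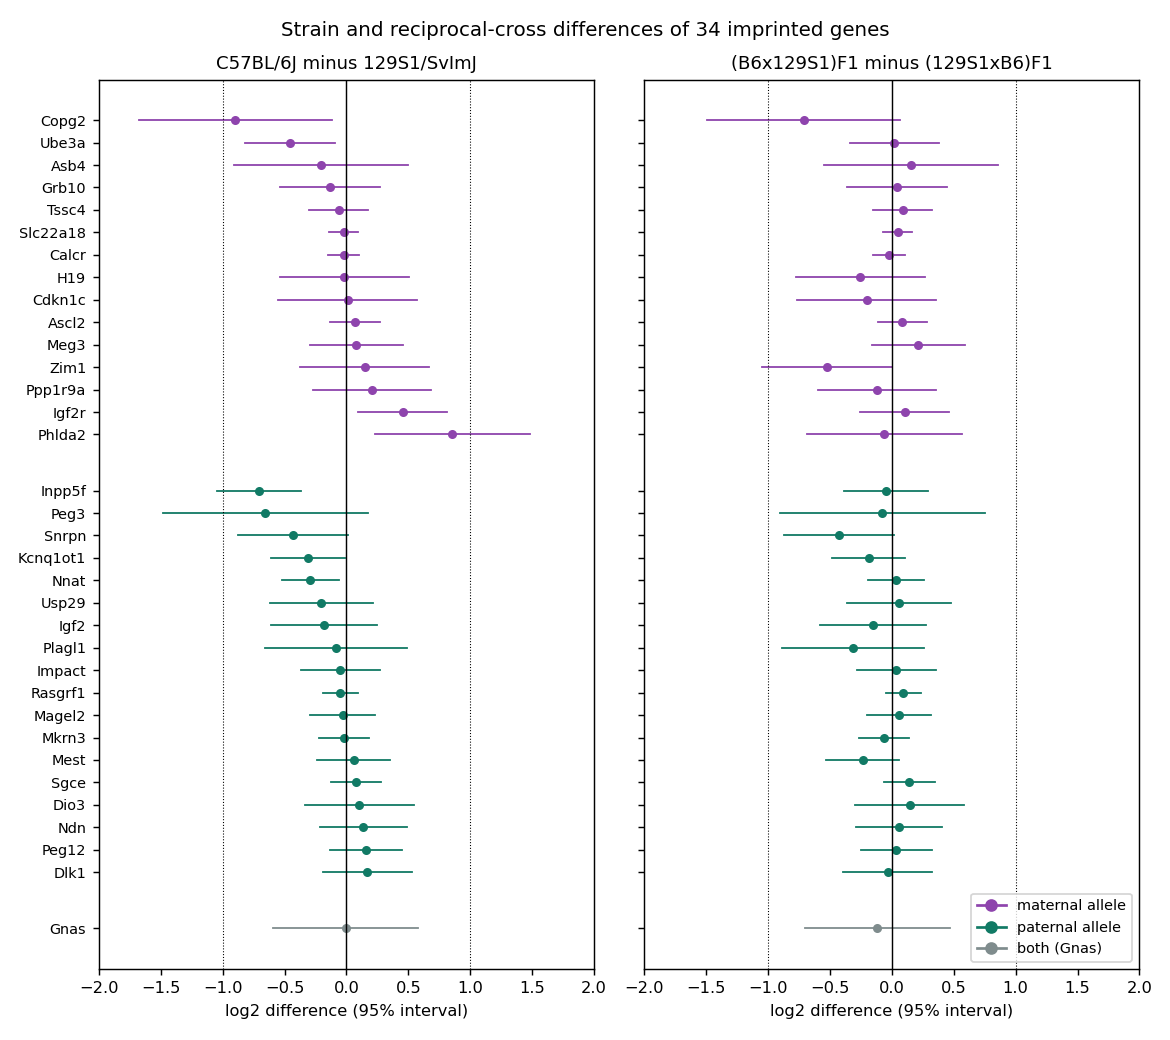
Log2 differences with 95% intervals (x axes) for the 34 imprinted genes tested, between the strains (left) and between the reciprocal hybrids (right), ordered within maternally and paternally expressed genes by the strain difference. Dotted lines mark 2-fold either way; in the right panel every interval includes 0 except that of Zim1, whose upper bound is -0.00.

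Zim1, a maternally expressed zinc finger gene beside Peg3, had the smallest p in this comparison. Its log2 ratios were 0.87, 0.41, 0.30, 0.66 and 0.23 in the (B6x129S1)F1 pairs and 0.92, 1.08, 1.63, 0.92 and 0.53 in the (129S1xB6)F1 pairs. The crosses overlapped, since the lowest (129S1xB6)F1 pair, at 0.53, lay below the (B6x129S1)F1 pairs at 0.66 and 0.87. The difference was -0.52 ± 0.25 (unadjusted p = 0.0494, limma, 5 arrays against 5). After adjustment over all genes it was not called (limma, adjusted p = 1.00). Its size depended on the background correction, at -0.19 with none and -0.72 with the processed signals. Within the slides that held both crosses it was -1.40, -0.67, -0.05 and -0.25. The strains, with means of 1.11 ± 0.31 and 0.96 ± 0.62 (SD, n = 5), differed by 0.15 ± 0.25.

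Among the 5 members next in order, Snrpn and Copg2 are described further on. Mest, a paternally expressed gene for a hydrolase-like protein, averaged -0.10 ± 0.19 (SD) in (B6x129S1)F1 and 0.13 ± 0.16 in (129S1xB6)F1. Its arrays ran from -0.31 to 0.19 and from -0.12 to 0.28, which overlap. Sgce, the paternally expressed epsilon-sarcoglycan gene, differed by 0.14 ± 0.10, from -0.21 to 0.10 against -0.38 to 0.09. Rasgrf1, a paternally expressed guanine nucleotide exchange factor gene, differed by 0.09 ± 0.07, from -0.13 to 0.15 against -0.17 to 0.13. None of these 3 was called. With the mean over probes the Sgce difference was 0.05, and that of Rasgrf1 was 0.03 with no background subtraction and 0.16 with the processed signals. The other Rasgrf1 probes did not agree in sign. A probe ran lower in (B6x129S1)F1, from -0.22 to -0.05 against -0.02 to 0.15, without overlap. Another ran higher there, from -0.101 to 0.076 against -0.182 to -0.103, also without overlap, and on the last the crosses overlapped.

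Between the strains, 1 of the 34 genes was called, Inpp5f, listed here as paternally expressed, against 4.15% of all genes. At an unadjusted p under 0.05 there were 7 of 34, or 20.6%, against 13.2% of all genes. Of the 7, 4 were among the 15 maternally expressed genes (Igf2r and Phlda2 above 0; Ube3a and Copg2 below 0) and 3 among the 18 paternally expressed (Inpp5f, Nnat and Kcnq1ot1, all below 0). The median strain difference was -0.02 for the maternally and -0.05 for the paternally expressed genes, beside 0.00 over all genes. On the brightest probe of each gene, the arrays of the strains did not overlap for Inpp5f and Igf2r, and 4.25% of all genes were separated in this way. Of the 70 probes tested, 1 was called, against 4.08% of all probes. The gonad markers also lay higher in C57BL/6J, with a median difference of 0.54, 10 of 11 above 0, 1 called (Emx2) and 6 of 11, or 54.5%, at an unadjusted p under 0.05. Their part in the strain differences of the imprinted genes was not tested.

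Inpp5f encodes an inositol polyphosphate phosphatase of the endosome, and one of its transcripts is paternally expressed. Whether its probes read that transcript was not tested. It was 1.63-fold lower in C57BL/6J than in 129S1/SvImJ. The C57BL/6J pairs had log2 ratios of -1.39, -1.35, -1.15, -1.42 and -1.35, and the 129S1/SvImJ pairs -0.56, -0.73, -1.01, -0.84 and 0.01. Every C57BL/6J pair lay below every 129S1/SvImJ pair, and the 129S1/SvImJ pairs were more spread. The difference was -0.71 ± 0.16 (limma, adjusted p = 0.0136). It had the same sign within each of the 4 slides that held both strains, at -0.57, -0.63, -0.35 and -1.43.

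The hybrid means of Inpp5f lay nearer to C57BL/6J. Inpp5f averaged -1.22 ± 0.26 (SD) in (B6x129S1)F1, with pairs at -1.18, -0.85, -1.56, -1.18 and -1.34, and -1.17 ± 0.24 in (129S1xB6)F1, with pairs at -1.37, -1.20, -0.79, -1.12 and -1.39. The hybrids were lower than 129S1/SvImJ by a log2 difference of -0.57 ± 0.14 (limma, adjusted p = 0.0493), which was the 1 member called in that comparison, against 1.34% of all genes. They differed from C57BL/6J by 0.13 ± 0.14, and from each other by -0.05 ± 0.16 with an interval of -0.39 to 0.29. Against C57BL/6J, 0 of 34 members were called in limma, beside 1.69% of all genes. In that comparison 4 of 34, or 11.8%, had an unadjusted p under 0.05, beside 10.5% of all genes. The comparison of the hybrids with 129S1/SvImJ shares the arrays of that strain with the strain comparison. In it Inpp5f stayed called under 3 of 12 alternatives and in 3 of 20 fits with 1 array left out. Aquantile, among the 3, leaves log2 ratios unchanged and so could not lose the call. Slide 5 held 4 of the 10 hybrid arrays, no strain array, and the lowest median net Cy5 signals (87.3 to 104), and on the 12 arrays of slides 2 to 4 the difference was -0.55 ± 0.21 (limma, adjusted p = 0.397).

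The call rested on 1 of the gene's 2 probes, which hold different sequences of the transcript. The first 30 bases of each are shown because the probes differed in what they read, with no common stretch longer than 6 bases between them.
Inpp5f probe with the strain difference: acatttagcatctcttgtaggttctagaac
Inpp5f probe without a call: aaatccaatgtgaacatcggcaacctacga
The second probe gave a strain difference of -0.16 ± 0.18 (limma over all probes, adjusted p = 0.835) at a median net signal of 41.2, against 488 for the first. The strain difference was not called with only the strain arrays in the fit (adjusted p = 0.0563) or with the mean of both probes, where it was -0.43 (adjusted p = 0.13), nor on the 12 arrays of slides 2 to 4, where it was -0.80 (adjusted p = 0.205).

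**Figure D2:**
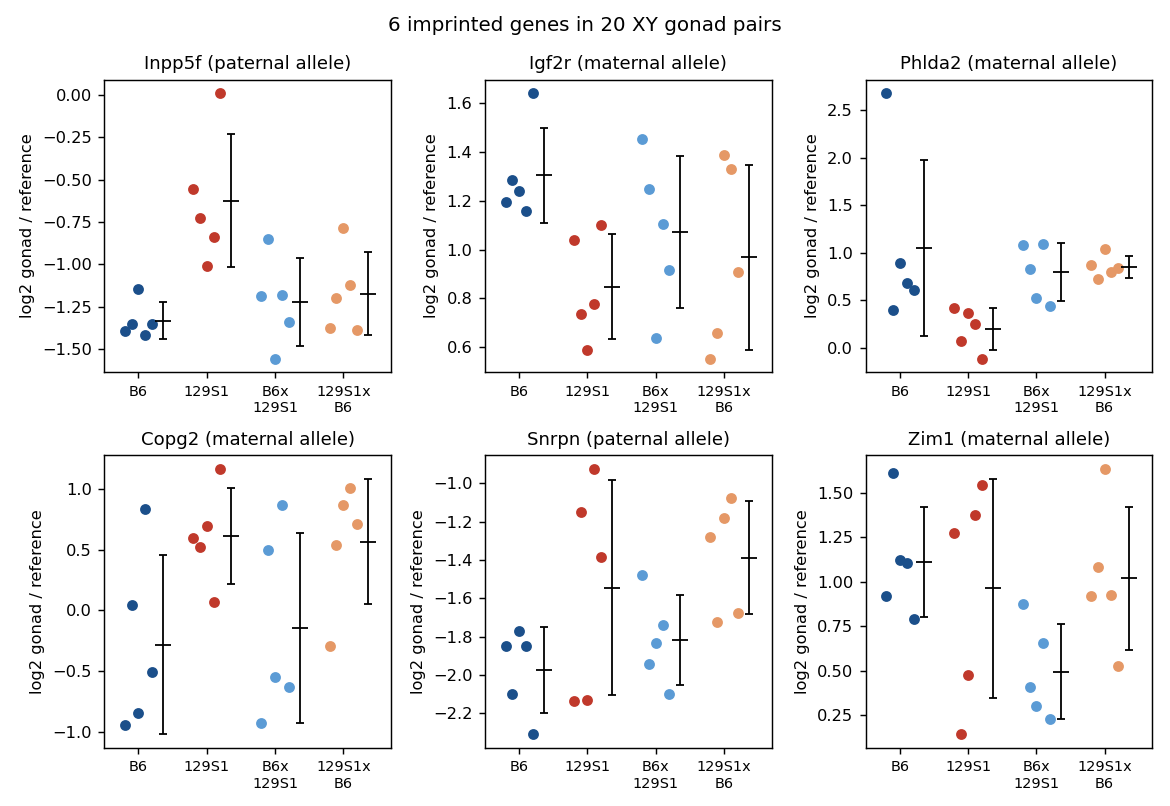
Log2 ratio of gonad over reference (y axes) of each gonad pair (points) in the 4 groups for 6 imprinted genes, with the mean and SD of 5 pairs beside the points. Inpp5f and Igf2r show strain groups that do not overlap, the C57BL/6J pair at 2.68 stands alone in Phlda2, and the Copg2 pairs of all 4 groups overlap.

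Igf2r, the maternally expressed receptor that takes up IGF2 for degradation, read higher in C57BL/6J without passing the threshold. Its pairs were at 1.20, 1.29, 1.24, 1.16 and 1.64 in C57BL/6J and at 1.04, 0.74, 0.59, 0.77 and 1.10 in 129S1/SvImJ, which do not overlap. The difference was 0.46 ± 0.17 (limma, adjusted p = 0.195). The hybrids lay between, with means of 1.07 ± 0.31 and 0.97 ± 0.38 (SD), and overlapped both strains. They differed from each other by 0.10 ± 0.17.

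Phlda2, a maternally expressed gene that limits growth of the placenta, had a strain difference of 0.85 ± 0.30 (limma, adjusted p = 0.146). The C57BL/6J pairs were at 2.68, 0.40, 0.89, 0.68 and 0.60, and the 129S1/SvImJ pairs at 0.42, 0.07, 0.37, 0.24 and -0.12. The value of 2.68 came from H1, and without that array the difference was 0.45 ± 0.14 (adjusted p = 0.112). On H1, Afp, a product of yolk sac and liver, stood at 2.85 against -6.07 to -4.94 on the other C57BL/6J arrays, Ttr, made by the same tissues, at 0.17 against -1.66 to -0.92, and Alb, the albumin gene, at -2.16 against -3.14 to -2.81. These 3 of the 10 embryo markers were higher on H1 than on all 19 other arrays, and the other 7 were not. Their part in the Phlda2 value was not tested.

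The hybrids held Phlda2 at 0.79 ± 0.30 and 0.85 ± 0.12 (SD). Their difference was -0.06 ± 0.30. They were higher than 129S1/SvImJ by 0.63, which was not called with all arrays in the fit (limma, adjusted p = 0.305) but was called without H1 (limma, adjusted p = 0.00963) or without C57BL/6J altogether (adjusted p = 0.0167). The 2 probes of the gene share 50 bases, in capitals below, so they are not separate readings of the transcript, and both gave H1 as the highest array, at 2.68 and 1.90.
Phlda2 probe used: cttccaacccACCATTCCGTGTTAATATTT
Phlda2 second probe: ACCATTCCGTGTTAATATTTTTTATACCAT

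Copg2 encodes a subunit of the coat of Golgi vesicles, lies next to Mest, and is maternally expressed in the mouse. It had the most negative difference of the members in both comparisons. Its log2 ratios were -0.95, 0.04, -0.85, 0.84 and -0.51 in C57BL/6J and 0.60, 0.52, 0.70, 0.07 and 1.17 in 129S1/SvImJ. In the hybrids they were -0.93, 0.50, -0.55, 0.87 and -0.63 for (B6x129S1)F1 and -0.30, 0.54, 0.87, 1.01 and 0.71 for (129S1xB6)F1. The groups overlapped in both comparisons: 1 C57BL/6J pair lay within the 129S1/SvImJ range, 2 (B6x129S1)F1 pairs lay among those of (129S1xB6)F1, and that cross had 1 low pair of its own. The strain difference was -0.90 ± 0.37 (limma, adjusted p = 0.265) and the reciprocal difference -0.71 ± 0.37 (unadjusted p = 0.0698), and neither was called. Over the alternatives the reciprocal difference ran from -0.81 to -0.43, the latter with no background subtraction.

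The 3 Copg2 probes did not agree. Those that gave these values share 37 bases, of which the capitals below show a part, and had strain differences of -0.90 and -0.89 and reciprocal differences of -0.71 and -0.66. The remaining probe has no stretch of more than 6 bases in common with them and gave -0.06 ± 0.12 and -0.21 ± 0.12, at a median net signal of 93.8 against 520 for the brightest.
Copg2 probe used: GTGAAAAACTCTTGGCAATGctggaaaatt
Copg2 overlapping probe: TATTTAATGTGTGAAAAACTCTTGGCAATG
Copg2 separate probe: cttcggaactatggaagctacagaagcctt

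Ube3a, a maternally expressed ubiquitin ligase gene in neurons, had a strain difference of -0.45 ± 0.17 (limma, adjusted p = 0.204). C57BL/6J pairs were at -0.48, -0.50, -0.16, -0.63 and -1.14 and 129S1/SvImJ pairs at 0.23, -0.30, -0.59, 0.23 and -0.20. The ranges overlap. With slide in the model the difference was called (limma, adjusted p = 0.00427). Its size could not change there, since the strains had equal numbers of arrays on each slide. Its other probes gave -0.33 ± 0.12 and -0.04 ± 0.14, and the mean over probes -0.28. The hybrids lay at -0.42 ± 0.13 and -0.44 ± 0.25 (SD) and differed by 0.02 ± 0.17.

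Nnat, a paternally expressed gene for a small membrane protein of developing brain, differed by -0.29 ± 0.11 between the strains (limma, adjusted p = 0.192). Its pairs were at -1.88, -1.85, -1.92, -1.47 and -2.10 in C57BL/6J and at -1.57, -1.72, -1.28, -1.59 and -1.60 in 129S1/SvImJ. Only H4 of C57BL/6J reached into the range of the other strain, and without it the difference was -0.39 ± 0.10 and called (adjusted p = 0.0322). The hybrids differed by 0.03 ± 0.11. Kcnq1ot1, the paternally expressed RNA that silences its cluster, differed by -0.31 ± 0.14 between the strains and by -0.19 ± 0.14 between the hybrids, without a call.

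For an allele that differs in activity between the strains, a sign can be set out if the mother is named first. It also requires that the gene is imprinted in these gonads, which was not tested. The reciprocal difference would then have the same sign as the strain difference at a maternally expressed gene. At a paternally expressed gene it would have the opposite sign. The counts and correlations below include genes whether or not they are imprinted in the gonad. They therefore cannot decide whether imprinted alleles differ in activity. The strain and reciprocal differences share no arrays. They had the same sign in 6 of 15 maternally and 11 of 18 paternally expressed genes, beside 11725 of 23846 over all genes. For the paternally expressed genes the same sign is not the one set out above. Across genes, which are not independent replicates, Pearson's r was 0.37 and Spearman's rho 0.00 for the maternally expressed genes, and 0.36 and 0.46 for the paternally expressed, beside an r of -0.06 over all genes. For the genes of the maternal allele, Copg2 lay farthest out on both axes.

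**Figure D3:**
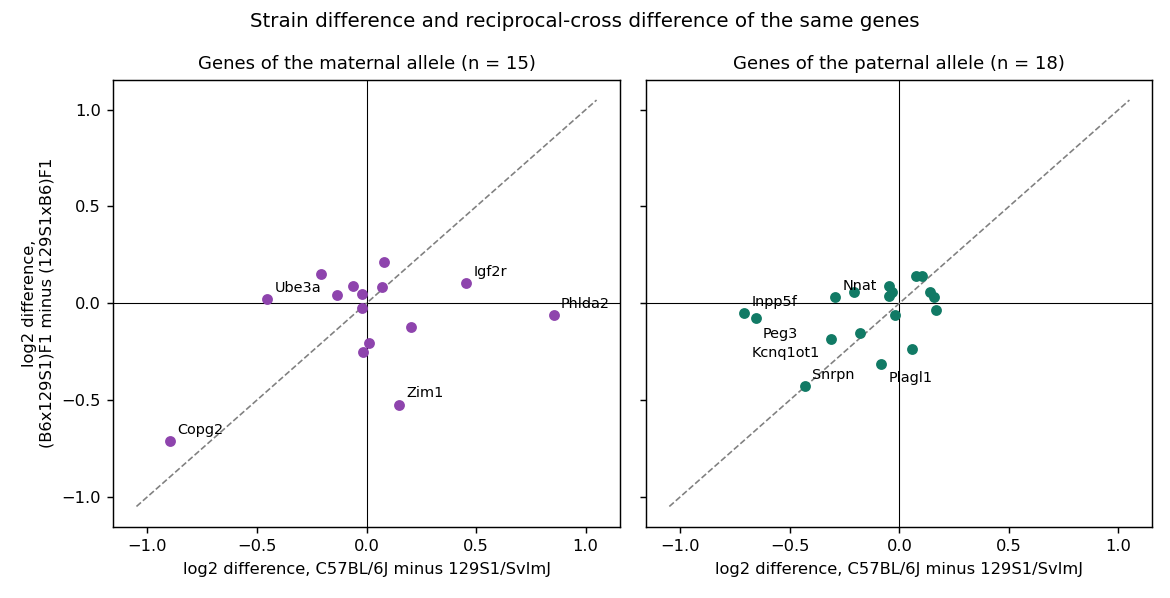
Reciprocal difference (y axis, log2) against strain difference (x axis, log2) for the maternally (left, n = 15) and paternally (right, n = 18) expressed genes. Each point is 1 gene and the dashed line marks equal differences. For paternally expressed genes the text sets out opposite signs, so that line is not their predicted one. The signs set out apply only to genes imprinted in the gonad, which was not tested. Copg2 on the left and Snrpn on the right lie near the dashed line, while Inpp5f, Phlda2, Igf2r and Ube3a lie near a reciprocal difference of 0.

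Snrpn, which encodes a small nuclear ribonucleoprotein and marks the Prader-Willi and Angelman region, is paternally expressed. It had the same size and sign in both comparisons, where opposite signs were set out above for a paternally expressed gene. The difference was -0.43 ± 0.21 between the strains and -0.43 ± 0.21 between the hybrids (limma, unadjusted p = 0.057 and 0.0573), with no call. The pairs were at -1.85, -2.10, -1.77, -1.85 and -2.31 in C57BL/6J and at -2.13, -1.15, -2.13, -0.92 and -1.38 in 129S1/SvImJ. They were at -1.48, -1.94, -1.83, -1.74 and -2.10 in (B6x129S1)F1 and at -1.28, -1.73, -1.18, -1.08 and -1.68 in (129S1xB6)F1. Over the alternatives the reciprocal difference ran from -0.53 to -0.19, the latter with no background subtraction. Ranges overlapped in both comparisons, and 129S1/SvImJ fell into 2 low and 3 high pairs.

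Mean values of Snrpn and Copg2 lay lower in C57BL/6J and (B6x129S1)F1 than in 129S1/SvImJ and (129S1xB6)F1, while their known active alleles come from different parents. A contrast of the first 2 groups with the other two, chosen after the values had been seen, gave -0.81 ± 0.26 for Copg2 (limma, adjusted p = 0.207) and -0.43 ± 0.15 for Snrpn (adjusted p = 0.268). In that contrast 0 of 34 members were called, with 5 of 34 at an unadjusted p under 0.05, against 1.34% and 8.88% of all genes. It holds the arrays of both comparisons above and adds none.

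The files assign both Snrpn probes to this gene, and they gave alike values, at -0.31 ± 0.18 and -0.34 ± 0.18 for the second. They align over 43 bases with 2 mismatches, G9A and A12G, counted from the 5′ end of the stretches shown and marked by capitals, so that they do not read one identical transcript sequence. Snrpb is a closely related gene, and signal from it in these probes cannot be told apart here.
Snrpn probe used: caagatggGagAatcttcattggcaccttc
Snrpn second probe: caagatggAagGatcttcattggcaccttc

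The remaining members are given by cluster. In the H19 and Igf2 cluster, H19, a maternally expressed long non-coding RNA, differed by -0.02 ± 0.25 between the strains and -0.25 ± 0.25 between the hybrids. Igf2, the paternally expressed growth factor, differed by -0.18 ± 0.20 and -0.15 ± 0.20. Group means of both lay between -0.42 and 0.06, close to the reference.

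In the Kcnq1 cluster, Cdkn1c, the maternally expressed cell cycle inhibitor p57, differed by 0.01 ± 0.27 between the strains and -0.20 ± 0.27 between the hybrids. Ascl2, a transcription factor of trophoblast, differed by 0.07 ± 0.10 and 0.08 ± 0.10. Slc22a18 and Tssc4 differed by -0.02 ± 0.06 and -0.06 ± 0.11 between the strains. Tssc4 differed by 0.09 ± 0.11 between the hybrids.

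Peg3, a paternally expressed zinc finger gene, lay above the reference in every group, with means of 1.56 to 2.22. Its strain difference of -0.66 ± 0.39 included array K2 of C57BL/6J at -0.32, far below the other C57BL/6J arrays at 1.81 to 2.21, and was -0.18 ± 0.27 without that array. The other 2 Peg3 probes read 0.78 and 0.23 on K2, within the range of their strain. Between the hybrids Peg3 differed by -0.08 ± 0.39 on its brightest probe. The second Peg3 probe ran lower in (B6x129S1)F1, from 0.33 to 0.89 against 0.64 to 1.66 in (129S1xB6)F1, with overlap. In the strains it ran from 0.57 to 1.38 in C57BL/6J and from 0.93 to 2.11 in 129S1/SvImJ. The third probe ran from 0.09 to 0.22 in (B6x129S1)F1 and from -0.01 to 0.25 in (129S1xB6)F1. Usp29, a paternally expressed neighbour that encodes a ubiquitin protease, differed by -0.20 ± 0.20 and 0.06 ± 0.20.

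In the cluster of Peg10 and Sgce, the maternally expressed Asb4, Ppp1r9a and Calcr differed by -0.21 ± 0.34, 0.20 ± 0.23 and -0.02 ± 0.06 between the strains. Sgce differed by 0.08 ± 0.10 on its brightest probe. Its other probe ran from -0.240 to -0.038 in C57BL/6J and from -0.639 to -0.247 in 129S1/SvImJ, without overlap. In the hybrids that probe ran from -0.67 to -0.23 in (B6x129S1)F1 and from -0.57 to -0.19 in (129S1xB6)F1, with overlap. Between the hybrids Asb4 and Ppp1r9a differed by 0.15 ± 0.34 and -0.12 ± 0.23. Ppp1r9a encodes neurabin, an actin-binding scaffold, and Asb4 a substrate receptor for ubiquitin ligase.

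The Dlk1 and Dio3 cluster lay below the reference in every group. Dlk1, a paternally expressed inhibitor related to Notch ligands, had group means of -0.87 to -0.53, Meg3, a maternally expressed long non-coding RNA, -1.27 to -0.81, and Dio3, the paternally expressed deiodinase that inactivates thyroid hormone, -1.13 to -0.99. Between the strains they differed by 0.17 ± 0.17, 0.08 ± 0.18 and 0.10 ± 0.21, and between the hybrids by -0.03 ± 0.17, 0.21 ± 0.18 and 0.14 ± 0.21.

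Beside Snrpn and Ube3a, the paternally expressed Ndn, Magel2, Mkrn3 and Peg12 of the same region had strain differences of -0.03 to 0.16 and reciprocal differences of -0.06 to 0.06. Ndn encodes necdin and Magel2 a protein of the same MAGE family. Their intervals lay within 2-fold in both comparisons.

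Of the single genes, Grb10, a maternally expressed adaptor that dampens insulin and IGF signalling, differed by -0.13 ± 0.19 and 0.04 ± 0.19. Plagl1, a paternally expressed zinc finger gene that acts on other imprinted genes, lay at -1.58 to -1.27 in the groups and differed by -0.08 ± 0.27 and -0.31 ± 0.27. Gnas, for the stimulatory G protein subunit, differed by -0.01 ± 0.28 and -0.12 ± 0.28 on its brightest probe. Impact, a paternally expressed regulator of translation, differed by -0.05 ± 0.15 and 0.04 ± 0.15, and Rasgrf1 by -0.05 ± 0.07 between the strains.

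The hybrids as a class were compared with the mean of the strains, which shares arrays with both comparisons above. No member was called (0 of 34 in limma, against 0.264% of all genes), and 5 of 34 had an unadjusted p under 0.05, against 9.91% of all genes. Of these 5, 4 are maternally expressed. Ppp1r9a was lower in the hybrids by -0.52 ± 0.16 (limma, unadjusted p = 0.00417), Cdkn1c by -0.43 ± 0.19 and Meg3 by -0.32 ± 0.13, while Ascl2 was higher by 0.15 ± 0.07. Sgce, paternally expressed, was lower by -0.15 ± 0.07.

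Ppp1r9a pairs ran from 0.57 to 1.31 in C57BL/6J and from 0.25 to 1.42 in 129S1/SvImJ. They ran from -0.02 to 0.84 in (B6x129S1)F1 and from -0.08 to 0.95 in (129S1xB6)F1, so the groups overlapped. Germ cells are where imprints are erased, and their 11 tested markers had a median difference of 0.45 in the same comparison, with 2 called higher in the hybrids, Ddx4 and Dppa5a, and 11 of 11 above 0. In these bulk samples, fewer cells of a type and less RNA per cell cannot be told apart. The part of germ cells in the values of the imprinted genes was not tested.

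Imprinted genes varied more from pair to pair than most genes. The standard deviation within groups had a median of 0.287 over the 34 members and 0.183 over all 23846 genes, and 26 of the 34 lay above the latter. In all, 61.8% of members were above the upper quartile of all genes. Members were not matched to other genes for signal. Peg3 (0.67), Copg2 (0.63), Asb4 (0.57) and Phlda2 (0.50) were highest, the first and last with the single arrays K2 and H1 named above. Slc22a18, Calcr and Rasgrf1 were lowest, at 0.08, 0.08 and 0.10.

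**Figure D4:**
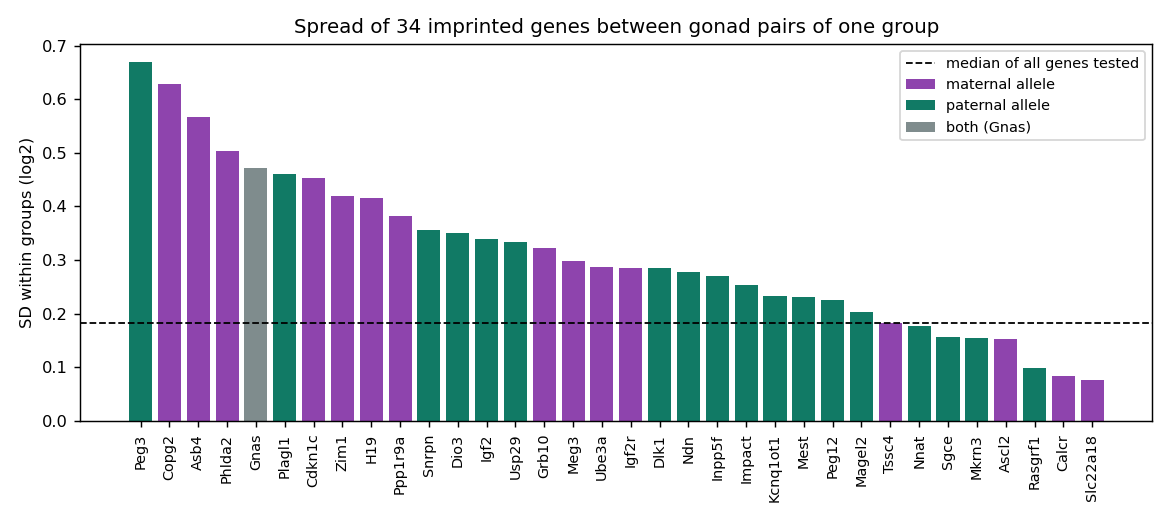
Standard deviation of the log2 ratio within groups (y axis, 16 residual degrees of freedom) for each imprinted gene tested, coloured by expressed allele, with the median of all genes tested as a dashed line at 0.183. The dashed line is exceeded by 26 of the 34 bars.

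This spread was used to ask whether neighbours or known partners moved together from embryo to embryo, with group means removed. Of 22 listed pairs, 18 could be tested, 13 of them within 1 cluster and 5 between known partners, and 4 were called after adjustment over the 18 (permutation within groups, two-sided, 100000 permutations). All pairs share the RNA, the slide and the hybridisation of each array. The 4 called pairs are among the 13 of 1 cluster. Pairs of genes outside the list were not examined.

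H19 and Igf2 share enhancers and are expressed from opposite parental chromosomes. They had r = 0.68 and rho = 0.68 over 20 arrays (permutation p = 0.00422 and 0.00375, adjusted 0.028 and 0.0337). Without the 2 arrays farthest from the median of H19, r was 0.56 and rho 0.62, and the call was lost (permutation, adjusted p = 0.136, unadjusted 0.0377). With slide means removed r was 0.64 (adjusted p = 0.0544). Cdkn1c and Kcnq1ot1 had r = 0.65 and rho = 0.51 (permutation p = 0.0091 and 0.0375, adjusted 0.0409 and 0.075). Without the 2 farthest arrays their r was 0.40 and the call was lost (adjusted p = 0.244). With slide means removed their r was 0.73 (adjusted p = 0.0113).

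Mest and Copg2 had r = 0.59 and rho = 0.65 (permutation p = 0.00158 and 0.00275, adjusted 0.028 and 0.0337). Leaving out the 2 arrays farthest in Mest gave r = 0.75 (adjusted p = 0.0234), and removing slide means gave 0.41 (adjusted p = 0.189). Phlda2 and Slc22a18 had r = 0.56 and rho = 0.54 (permutation p = 0.00467 and 0.013, adjusted 0.028 and 0.0467). Without the 2 farthest arrays, H1 among them, r was 0.40 and the call was lost (adjusted p = 0.205). With slide means removed r was 0.37 (adjusted p = 0.315).

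**Figure D5:**
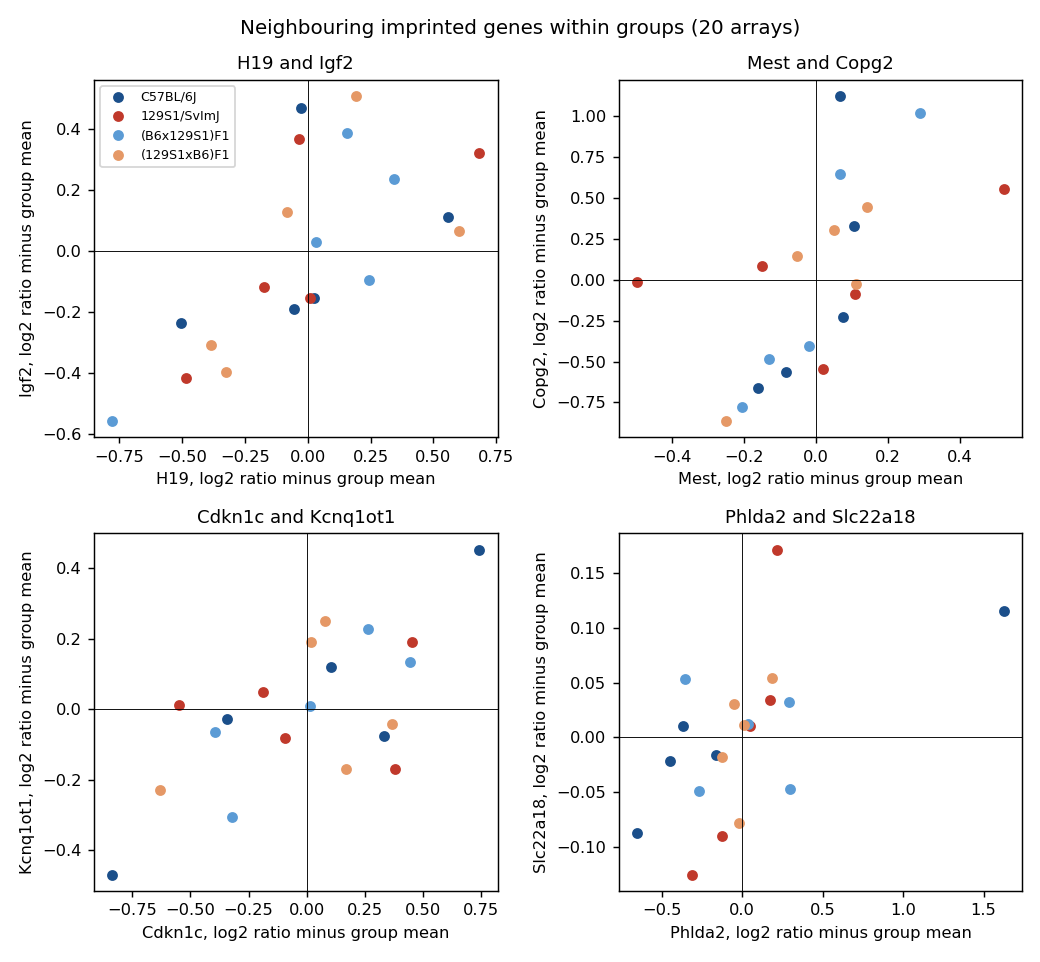
Log2 ratio minus the group mean of the second gene (y axes) against the first (x axes) for the 4 called pairs, 20 arrays each, coloured by group. In the panel of Phlda2 and Slc22a18 the array at the far right is H1.

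Igf2 and its receptor Igf2r showed no such relation, with r = 0.01 and rho = -0.04 (permutation p = 0.956 and 0.896). Dlk1 and Meg3, on opposite chromosomes of 1 cluster, had r = 0.20 and rho = 0.15 (permutation p = 0.497 and 0.582). Plagl1 had r = 0.53 and rho = 0.66 with Dlk1 (permutation p = 0.0526 and 0.0063), of which the rho alone passed after adjustment (0.0378). It did not pass with the processed signals (adjusted p = 0.0766), with slide means removed (0.133) or without the 2 farthest arrays (0.0886). Plagl1 and H19 had r = 0.06.

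Upstream sequence is shown for Mest and Copg2, the one of the 4 pairs whose call held without the farthest arrays. The capitals mark TGCCGC on either strand, the core motif that the imprint-keeping factor ZFP57 binds in methylated form; the sequences are RefSeq's, of build GRCm38.p6, and end at the base before the start site.
Mest, plus strand, chr6:30737800-30738049: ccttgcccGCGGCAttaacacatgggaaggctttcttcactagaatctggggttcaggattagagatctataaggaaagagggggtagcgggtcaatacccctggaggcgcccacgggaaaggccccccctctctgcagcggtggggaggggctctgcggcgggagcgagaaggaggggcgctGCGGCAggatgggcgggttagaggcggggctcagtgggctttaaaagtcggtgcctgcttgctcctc
Copg2, minus strand, chr6:30896795-30897044: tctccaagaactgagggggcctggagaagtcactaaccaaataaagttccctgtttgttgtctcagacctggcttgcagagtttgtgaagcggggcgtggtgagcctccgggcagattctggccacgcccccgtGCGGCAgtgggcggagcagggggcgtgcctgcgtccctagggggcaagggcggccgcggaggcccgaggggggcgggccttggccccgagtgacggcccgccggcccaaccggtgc

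The Mest stretch held 2 matches and the Copg2 stretch 1. In windows of 300 bases around the start, 250 before and 50 after, 31 of the listed genes had an entry, and 11 of them, or 35.5%, held the motif in at least 1 window, against 13.1% of 27025 genes. By window the shares were 25.5% of 47 and 11.6% of 32851. The windows of the listed genes were also richer in CG dinucleotides, with a median of 15 against 7, and the motif contains one. A match is a description of the letters and not a binding site.

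Other genes of the field were read from lists. Of 50 further imprinted genes, 42 were tested and 0 were called in the strain, reciprocal or mid-parent comparison, with 5, 1 and 6 at an unadjusted p under 0.05. These are 11.9%, 2.38% and 14.3% of the list, beside 13.2%, 2.51% and 9.91% of all genes. The smallest p between the strains was that of Trpm5, a cation channel gene of the Kcnq1 cluster, at 0.30 ± 0.10, and between the hybrids that of Tspan32, a tetraspanin gene of the same cluster, at 0.51 ± 0.22.

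Of 25 regulators of imprints, 24 were tested and 0 were called in these comparisons, with 4, 0 and 3 at an unadjusted p under 0.05, or 16.7%, 0% and 12.5%, beside the shares of all genes just given. Between the strains, Dnmt1, the maintenance methyltransferase, differed by 0.30 ± 0.12, and Zfp57 and Zfp445, zinc finger factors that protect imprints, by -0.28 ± 0.13 and -0.52 ± 0.21. Dppa3, which guards maternal methylation after fertilisation and marks germ cells, was higher in the hybrids than mid-parent by 1.13 ± 0.25 (limma, adjusted p = 0.0750), and was the 1 regulator called against C57BL/6J, at 1.22 ± 0.31 (limma, adjusted p = 0.0498), a comparison with 1.69% of all genes called. Of 24 genes of IGF signalling, 23 were tested and 0 called in these comparisons, with 1, 0 and 2 at an unadjusted p under 0.05, or 4.35%, 0% and 8.70%. Igfbp2, an IGF-binding protein gene, differed by 0.51 ± 0.19 between the strains, and Igf1 lay below mid-parent in the hybrids by -0.44 ± 0.10 (limma, adjusted p = 0.0800). Igf1 was the 1 gene of this list called against C57BL/6J, lower in the hybrids by -0.52 ± 0.12 (limma, adjusted p = 0.0311).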

How the data were processed

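Per the file headers, the authors deposited Agilent Feature Extraction output with spot intensity for each channel. Their deposited series table holds log2 values that correlated with the processed ratios of the same array at r = 0.935 to 0.960, in the same direction and with medians of 0.00054 to 0.042; how they were scaled and centred is not given in the sources used here. That table and the processed signals were used as alternatives. For the main values, normexp background correction (offset 50) and loess on each array separately, with control spots at weight 0, were run with limma 3.58.1 under R 4.3.3. The probe brightest on average stood for a gene, and a gene was tested if that probe's Cy5 signal passed the background flag on 4 or more of the 5 arrays of any group. The fit had 16 residual degrees of freedom, and the number of arrays limits the precision. The 20 arrays lay on 5 slides, of which slide 1 held strains only and slide 5 hybrids only. Alternatives were background correction, Aquantile, slide or sample letter as a block, the filter, the arrays fitted, the mean over probes, leaving out each array and, added after seeing the data, slides 2 to 4 alone. The members and lists were chosen with earlier results of these data known. All members were accounted for, and values per array were given for called members and the 6 of smallest p in the strain and reciprocal comparisons. Scripts were tested on simulated data.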

Additional observations from a re-analysis of the deposited data

Results flagged for a closer look

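Of the members, 7 values stood far from the other 4 arrays of their group by Dixon's criterion at 95%. With 136 groups of 5 arrays examined, chance alone flags about 5% of groups, and 7 of 136 is near that share. Phlda2 was 2.68 on C57BL/6J H1, against 0.40 to 0.89 on the other 4 arrays. Peg3 was -0.32 on C57BL/6J K2, against 1.81 to 2.21, and Igf2r was 1.64 on the same array, against 1.16 to 1.29. Inpp5f was -1.15 on C57BL/6J H3, against -1.42 to -1.35, the closest of that strain to 129S1/SvImJ. H19 was -1.19 on (B6x129S1)F1 C2, against -0.38 to -0.07. Grb10 was -0.81 on (129S1xB6)F1 L1, against -0.27 to -0.08. Ascl2 was -0.55 on 129S1/SvImJ G3, against -0.22 to -0.09.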

How the results depend on the processing

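The count of members called between the reciprocal hybrids stayed at 0 under all 12 alternatives and each of 20 arrays left out, as did the count of their probes and the count of members called against mid-parent (11 alternatives each). Aquantile is counted among the alternatives for members and probes. It leaves log2 ratios unchanged, so it could not change a count. Between the strains, where 1 member was called, the count was 2 with slide as a block and 0 with only the strain arrays fitted, with the mean over probes or on slides 2 to 4 alone, an alternative added after seeing the data. Leaving out 1 array gave 1 to 2 members, the second being Nnat without H4. Of the members' probes, 1 was called in the strain comparison, but 2 with the processed signals, the deposited table or slide as a block, 0 with only the strain arrays or slides 2 to 4, and 1 to 2 with 1 array left out. Inpp5f stayed called in each of the 20 fits with 1 array left out (limma, adjusted p from 0.00687 to 0.0350), with differences of -0.80 to -0.55. The 1 member called between the hybrids and 129S1/SvImJ (alternatives also added after seeing the data) became 0 with the processed signals, no background subtraction, the authors' deposited table, slide or sample letter as a block, no filter, the mean over probes or slides 2 to 4, and 0 to 1 with 1 array left out. It was Phlda2 in place of Inpp5f without H1 or without C57BL/6J. The 4 correlated pairs became 3 with the processed signals, where Phlda2 with Slc22a18 was lost (adjusted p = 0.0804). They were 4 with no background subtraction, where Peg3 with Zim1 (0.036) stood in place of Cdkn1c with Kcnq1ot1 (0.0502). They became 1 with slide means removed (Cdkn1c with Kcnq1ot1) and 2 without the 2 farthest arrays (Mest with Copg2, and Cdkn1c with Phlda2, which was not among the 4). The cause of these changes was not tested, other than that fewer arrays or another probe entered. No paired analysis was possible because the replicate labels of the groups have none in common. Slide, shared by all groups on slides 2 to 4, served as a block instead. The offset holds the ratios of dim probes towards 0. Dio3, with a median net signal of 52.5, was well above background on 18 of 20 arrays.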
